A study of Arabidopsis thaliana with 6 samples.

Results

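Expansins are small secreted proteins that loosen plant cell walls without cutting their polymers. The expansin genes of Arabidopsis thaliana named by 35 locus identifiers were followed here in a comparison of 33233 gene loci made from the root apex. The 35 members are 26 α-expansins (EXPA), 5 β-expansins (EXPB), 3 expansin-like A genes (EXLA) and 1 expansin-like B gene (EXLB). The rule that picks them lists identifiers and holds no measured value, although the family was taken up with earlier results of these data known. A row of its own was found for 34 of them, and EXLA2 shared its row with the overlapping gene AT4G38401.

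The 6 RNA-seq libraries came from wild-type Columbia (Col-0) seedlings that had grown for 8 days in light, 3 from the apical 0.5 mm of the root, which includes the cap (zone I), and 3 from a 1.5 mm section with elongating and hair-forming cells (zone II). The authors' deposited tables give 1 comparison of 2 conditions, named control and experiment, and no label ties either name to a zone. A gene called higher below is one whose value was larger in experiment than in control, and zones are not assigned. The levels of the separate conditions were not analysed here, so which expansins were most abundant is not reported. Single libraries were not analysed either, library depth is unknown, and fold changes carry no SD. In such bulk tissue, fewer cells of a type and less RNA per cell cannot be told apart.

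Plant cells enlarge when the wall yields to turgor, and expansins act at acid pH, where proton pumps of the plasma membrane acidify the wall. They are thought to act where cellulose fibrils meet each other or xyloglucan, a polymer that XTH enzymes cut and rejoin. α-Expansins are the main agents of this acid growth in Arabidopsis, β-expansins are a related subfamily best studied in grass pollen, and the expansin-like proteins are assigned to the family by sequence, with no established loosening activity. EXPA7 and EXPA18 are known for their expression in root hair cells, where bHLH transcription factors including RSL4 act on promoters that hold the root hair element.

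The sequences upstream of the root hair expansins are shown first because both carry this element, as does no other expansin window searched. Each run below is the 250 bases before the annotated gene start in RefSeq on TAIR10.1, written 5′ to 3′ on the strand of the gene. Capitals mark the core of the element on either strand, which is TG and CACG with 4 or 5 bases of any kind between them. EXPA6 is shown beside them as the remaining expansin that holds this core, although without the full consensus. The windows are chr1:4276255-4276504 on the plus strand for EXPA7, chr1:23331313-23331562 on the plus strand for EXPA18 and chr2:12433797-12434046 on the minus strand for EXPA6.
EXPA7: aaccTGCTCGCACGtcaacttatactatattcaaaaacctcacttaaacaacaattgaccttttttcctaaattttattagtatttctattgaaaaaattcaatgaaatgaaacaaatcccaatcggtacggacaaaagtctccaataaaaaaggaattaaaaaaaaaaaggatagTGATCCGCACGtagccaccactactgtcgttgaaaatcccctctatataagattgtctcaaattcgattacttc
EXPA18: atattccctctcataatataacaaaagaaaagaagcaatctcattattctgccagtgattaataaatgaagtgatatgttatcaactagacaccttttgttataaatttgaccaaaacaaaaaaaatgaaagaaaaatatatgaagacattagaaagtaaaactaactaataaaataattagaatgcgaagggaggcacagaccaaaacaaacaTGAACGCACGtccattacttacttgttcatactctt
EXPA6: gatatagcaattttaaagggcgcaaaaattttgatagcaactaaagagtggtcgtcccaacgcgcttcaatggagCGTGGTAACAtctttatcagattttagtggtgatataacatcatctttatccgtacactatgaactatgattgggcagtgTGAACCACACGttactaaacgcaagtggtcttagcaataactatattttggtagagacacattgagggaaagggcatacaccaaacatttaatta

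The full root hair element consensus, searched on both strands, lay from 78 to 62 bases before the start of EXPA7 and from 40 to 25 bases before that of EXPA18. EXPA7 holds a further core, without the full consensus, from 246 to 237 bases before its start. Of 27431 protein-coding genes with a window of this length, 207 (0.755%) held the full consensus, and of 34 expansin windows 2 did. The core alone was found in 9.02% of all windows and in 3 of the 34 expansin windows. EXPA6 has it from 95 to 85 bases before the start and, on the opposite strand, from 175 to 166. The palindrome CACGTG was found in 6.49% of all windows and in 1 expansin window, that of EXPB2. A looser form, T and CACG with 5 or 6 bases between them, contains the core and was found in 29.8% of all windows and in 8 expansin windows, those of EXPA3, EXPA6, EXPA7, EXPA9, EXPA16, EXPA18, EXPB2 and EXLA2. A match describes the letters of the window and does not show that a factor binds there. The element was chosen for its known place in root hair promoters. Its presence in the 2 root hair expansins is therefore a description and no independent support.

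Of the 35 expansins 21 were tested in the authors' Cuffdiff comparison, and 10 of these had a q under 0.01, the threshold named for the authors' gene comparison. The q is the p-value adjusted for the number of loci tested. By the authors' deposited table, the 7 that fell were EXPA1, EXPA4, EXPA6, EXPA9, EXPA14, EXPA15 and EXPB3, and the 3 that rose were EXPA7, EXLA2 and EXLA3. The share called was 47.6%, against 43.6% of all 18050 tested loci. By direction 33.3% were lower, against 21.2% of all tested loci, and 14.3% were higher, against 22.3%. The median log2 fold change of the 21, with EXLA3 ranked highest because it is listed at 0 in control, was -0.56, beside -0.03 over all tested loci. No test was made of the family as a set. At a q under 0.05 the counts were 9 lower and 3 higher, with 28.0% and 27.8% of all tested loci (55.8% in either direction) past that threshold. At a q under 0.001 they were 6 lower and 3 higher, beside 15.2% and 17.6% of all tested loci (32.7% in either direction).

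**Figure D1:**
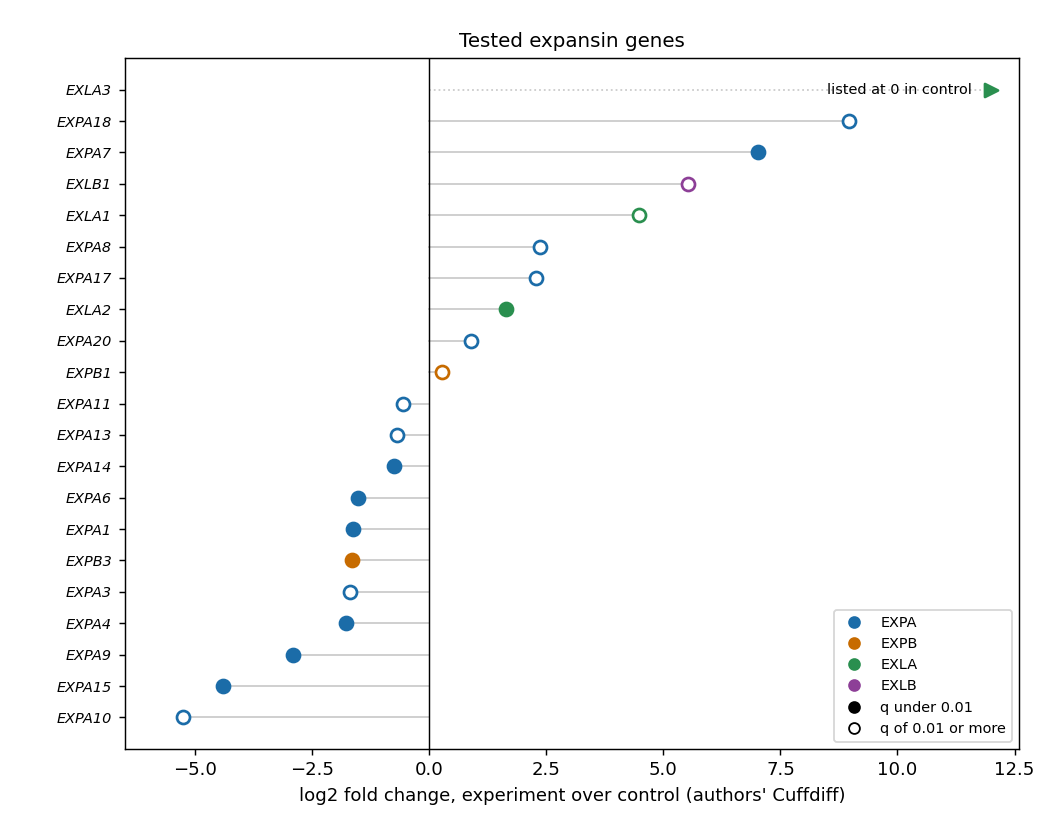
Log2 fold change (experiment over control, horizontal axis) of the 21 tested expansin genes, ordered by value, as the authors' Cuffdiff run gave it. Filled symbols passed a q under 0.01, colours mark the subfamilies, and the arrow stands for EXLA3, which is listed at 0 in control and has no finite fold. The 7 genes that fell run from -4.40 to -0.75, while the largest finite values at either end, EXPA18 and EXPA10, are open.

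Among α-expansins, 6 of 15 tested genes fell and 1 rose, while of all tested loci 21.2% fell and 22.3% rose. EXPA15 (AT2G03090) had the largest fall that passed, with a log2 fold change of -4.40, or 21.2-fold lower, a test statistic of -9.00 and q = 0.000177 by the authors' deposited table. Its locus lies on chromosome 2 from 916854 to 918643 on TAIR10. Of 3674 loci called lower with a finite fold, 70 fell as far or farther, EXPA15 included. Among all tested loci with a finite fold, called or not, EXPA15 ranked 270 from the lowest value. Loci listed at 0 in the experiment condition are outside both counts. By the test statistic EXPA15 stood among the 9 called loci with the most negative values.

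EXPA9 (AT5G02260) followed at -2.90, or 7.46-fold lower, with a test statistic of -6.90 and q = 0.000177 by the authors' deposited table. It lies on chromosome 5 from 463158 to 465246 on TAIR10. A narrower band of falls comprised EXPA4 (AT2G39700; -1.78, q = 0.000338), EXPA1 (AT1G69530; -1.62, q = 0.000177) and EXPA6 (AT2G28950; -1.52, q = 0.000177) by the authors' deposited table. EXPA1 is known to act in the opening of stomata. EXPA14 (AT5G56320), which the auxin-responsive factor LBD18 activates in lateral root development, had the smallest called fall, at -0.75, or 1.68-fold lower, with q = 0.00171 by the authors' deposited table.

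EXPA7 (AT1G12560), the root hair expansin, was the 1 α-expansin that rose. Its log2 fold change was 7.03, or 131-fold higher, with a test statistic of 8.49 and q = 0.000177 by the authors' deposited table. The locus lies on chromosome 1 from 4276519 to 4277899 on TAIR10. Of 3566 loci called higher with a finite fold, 33 rose as far or farther, EXPA7 included. Called or not, 254 tested loci had a finite log2 at least as large. A further 466 loci called higher are listed at 0 in control and have no finite fold. The root hair cell genes LRX1 (8.54), COBL9 (4.81) and RHD2 (2.70), which serve as markers of that cell type, rose as well by the authors' deposited table. All 3 markers of the list passed, while 22.3% of all tested loci rose, and their part in the value of EXPA7 was not tested.

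EXPA18 (AT1G62980), the other root hair expansin, had the largest finite fold of the family at 8.97 and did not pass, with p = 0.246 and q = 0.310 by the authors' deposited table. Its test statistic of 6.67 was larger in size than that of EXPA1, EXPA4, EXPA6 and EXPA14, all of which passed. Among all tested loci 410 had a statistic of at least this size, and 17 of these were not called. Of the 71 loci with a finite log2 at least as large as that of EXPA18, 69 were not called. EXPA10 (AT1G26770), known from leaf growth, stood at -5.26 with q = 0.288 by the authors' deposited table, a larger fold than that of EXPA15 with no call.

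**Figure D2:**
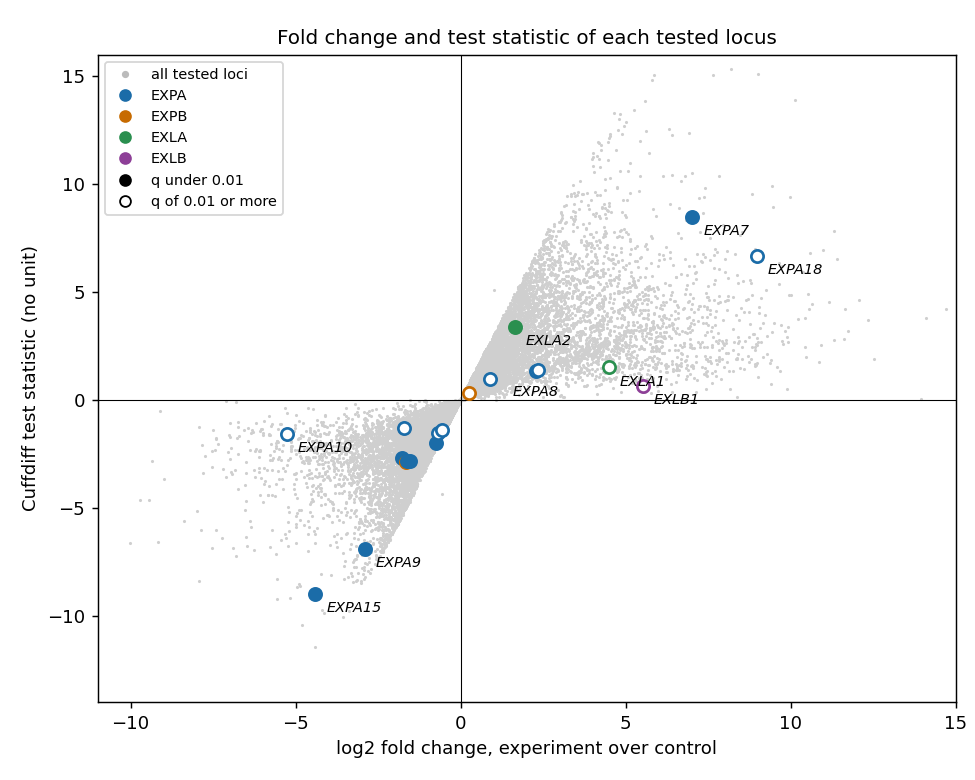
Log2 fold change (horizontal) and Cuffdiff test statistic (vertical, no unit) of the tested loci with finite values (grey) and of the expansins (large symbols, filled where q was under 0.01), with 12 loci outside the axes. EXPA7 and EXPA18 lie near each other at the upper right with statistics of 8.49 and 6.67, yet EXPA18 is open, whereas EXLA2 passed at a statistic of 3.39.

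The other tested α-expansins did not pass. EXPA8 (AT2G40610; 2.36, q = 0.0991) and EXPA17 (AT4G01630; 2.29, q = 0.0981), the latter a gene of lateral root emergence, had positive values of similar size by the authors' deposited table. EXPA3 (AT2G37640) stood at -1.70 with q = 0.0704 by the authors' deposited table, a fold like those of EXPA1 and EXPA4, but with a statistic of -1.32 in place of -2.83 and -2.70. EXPA13 (AT3G03220; -0.68, q = 0.0179) and EXPA11 (AT1G20190; -0.56, q = 0.0387) would be lower at a q under 0.05 by the authors' deposited table. EXPA20 (AT4G38210) had a value of 0.89 with q = 0.166 by the authors' deposited table. The span given for EXPA20 reaches 7770 bases beyond its gene, into AT4G38200 and AT4G38215, so its value is uncertain.

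No test was made for 14 members. These are EXPA2, EXPA5, EXPA12, EXPA16, EXPA19, the cluster EXPA21 to EXPA26, and EXPB2, EXPB4 and EXPB5. Of these 11 have a log2 of 0 by the authors' deposited table, which without a test gives no measure of change. EXPA12 and EXPA16 are listed at 0 in control without a test, and EXPA21 had a log2 of 0.11 without a test by the authors' deposited table. EXPA5, a gene of brassinosteroid-dependent growth, and EXPA2, known from seed germination, are among those with a log2 of 0. EXPA19 is annotated as a transcribed pseudogene.

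EXPA21 to EXPA26 lie side by side on chromosome 5, in 14.4 kb from 15726243 to 15740605 on TAIR10.1, and none of the 6 was tested. Within this cluster the coding sequences of EXPA22 and EXPA26 are 97.7% identical and those of EXPA23 and EXPA25 97.5% identical. Reads from such copies can be split between them, but this was not examined. EXPA21 and EXPA24 are at most 79.9% and 76.5% identical to any other member. The lack of a test does not show that the cluster is silent.

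Of the β-expansins 2 of 5 were tested, and they differed in their calls. EXPB3 (AT4G28250) fell, with a log2 fold change of -1.64, or 3.11-fold lower, and q = 0.000177 by the authors' deposited table. EXPB1 (AT2G20750), its closest relative by coding sequence at 77.6% identity, stood at 0.27 with q = 0.634 by the authors' deposited table. The span of EXPB1 reaches 2541 bases beyond the gene, into AT2G20760 and AT2G20770, and its value is uncertain. The difference between the 2 genes was not tested.

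All 3 expansin-like A genes were tested, and 2 rose, while 22.3% of all tested loci rose. EXLA3 (AT3G45960) is listed at 0 in control with q = 0.000177 by the authors' deposited table and therefore has no fold. It lies on chromosome 3 from 16892756 to 16893900 on TAIR10. EXLA2 (AT4G38400) was at 1.64, or 3.12-fold higher, with q = 0.000177 by the authors' deposited table, a value that covers AT4G38401 too. EXLA1 (AT3G45970), which has 2012 bases between it and EXLA3 and is 86.6% identical to it in coding sequence, stood at 4.49 with q = 0.0751 by the authors' deposited table. Its span takes in AT3G07315 and AT3G45980 as well, so the value of EXLA1 is uncertain.

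EXLB1 (AT4G17030) stood at 5.52 with q = 0.225 and a test statistic of 0.626 by the authors' deposited table. Its span is 62650 bases long for a gene of 1729 bases and is shared by 13 rows of the table. The value of EXLB1 is therefore uncertain. Its 1 isoform stood at 6.34 with q = 0.121 by the authors' deposited table.

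Coding sequences of the 34 members other than EXPA19 were aligned in pairs, and the identity was taken over aligned bases. There were 10 pairs in which each gene was the closest relative of the other, and in 5 of them both genes were tested. In 4 of these 5 the log2 values had the same sign, although in each 1 gene passed and the other did not. EXPA7 and EXPA18 (74.5% identical) were both positive, and so were EXLA1 and EXLA3. EXPA3 and EXPA9 (75.0%) and EXPA1 and EXPA10 (78.7%) were negative. EXPB1 and EXPB3 were the pair of opposite sign. The values of EXLA1 and EXPB1 are uncertain, because their spans take in other genes, and so are the signs of their pairs. EXPA4 and its closest relative EXPA16 (81.1%) could not be set side by side because EXPA16 was not tested. Genes are not independent replicates, and these signs are a description.

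**Figure D3:**
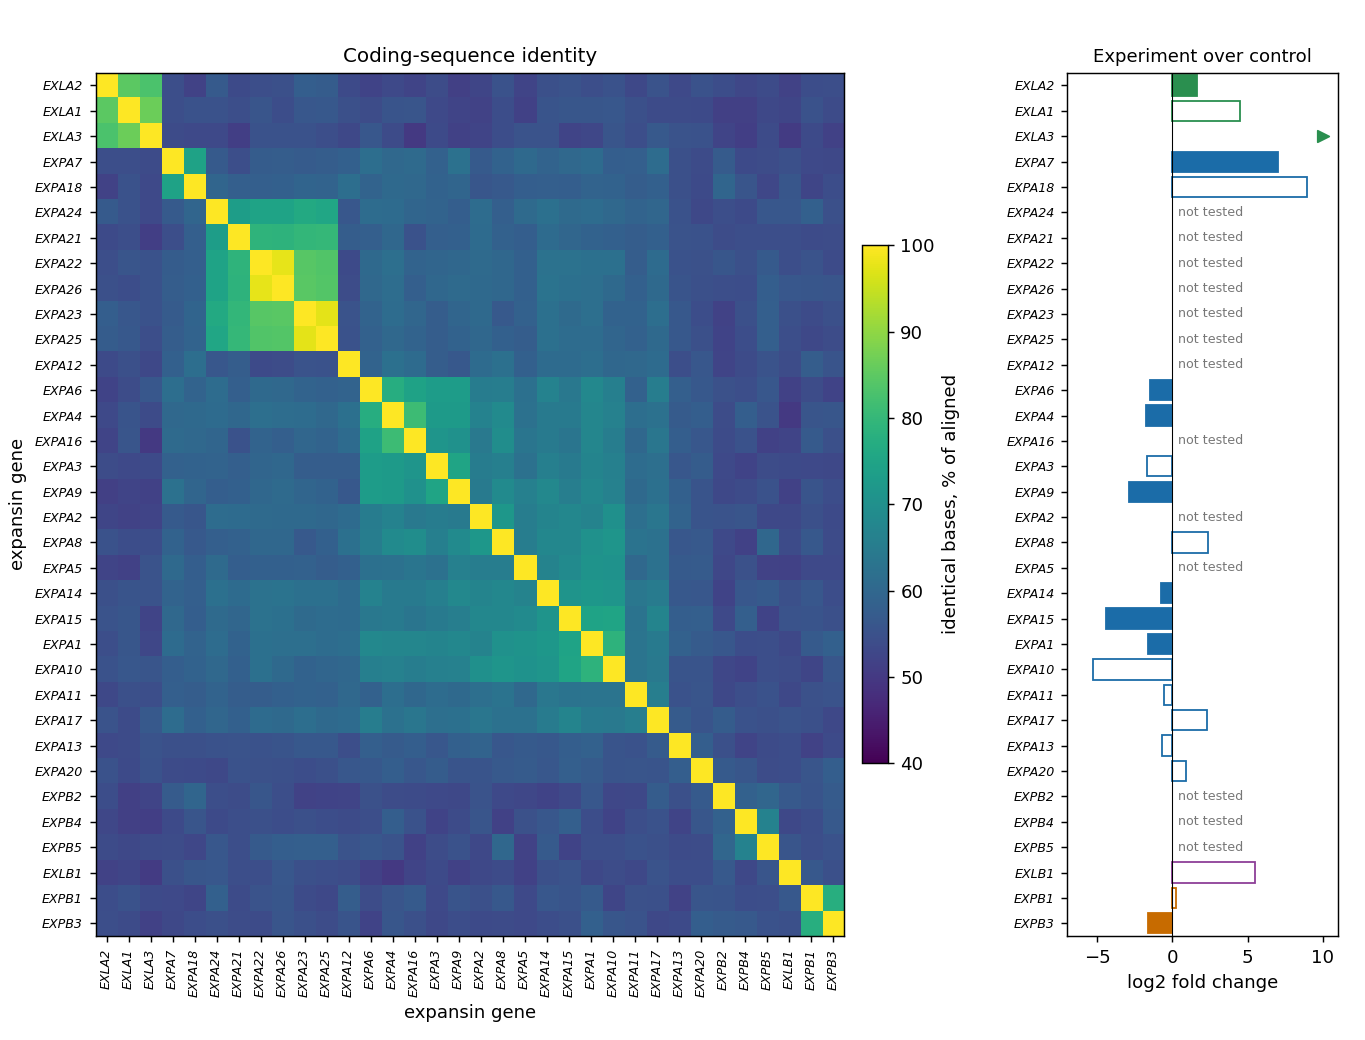
Left, identity of coding sequences between 34 expansins (identical bases as % of aligned bases), with genes ordered by average-linkage clustering. Right, log2 fold change of the same genes, filled where q was under 0.01, with the arrow for EXLA3, listed at 0 in control. The 6 genes of the chromosome 5 cluster form a block of high identity with no test, and EXPA7 and EXPA18 stand together with the largest positive α-expansin values.

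The isoform comparison lists 55 expansin isoforms, of which 31 were tested and 5 had a q under 0.01. This is 16.1% of those tested, beside 16.8% of all 32807 tested isoforms, and by direction 1 was higher (9.93% of all) and 4 were lower (6.9% of all). EXPA15 (-4.23), EXPA9 (-2.80) and EXPB3 (-1.47) each had 1 isoform that fell with q = 0.000428 by the authors' deposited table, and the isoform of EXPA6 fell by 1.48 on the log2 scale with q = 0.000812. For EXLA3, 1 of its 2 isoforms passed with q = 0.000428 and the other had q = 0.0153, both listed at 0 in control by the authors' deposited table. Of the 22 members with 1 listed isoform, EXPA6, EXPA9 and EXPA15 passed in both comparisons.

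EXPA1, EXPA4, EXPA7, EXPA14 and EXLA2 passed as genes and had no isoform that passed; each has more than 1 listed isoform. The 2 isoforms of EXPA7 were at 6.71 (q = 0.258) and 7.43 (q = 0.282) by the authors' deposited table, on either side of the gene value of 7.03. EXPA18 had 3 tested isoforms, at 9.49 (q = 0.342), at 9.22 (q = 0.331) and listed at 0 in control (q = 0.331) by the authors' deposited table. EXPA14 had isoforms at -0.56 (q = 0.206) and -0.99 (q = 0.804), and EXLA2 at 3.49 (q = 0.179) and 1.60 (q = 0.153), by the authors' deposited table. The tested isoform of EXPA4 missed the threshold at -1.72 (q = 0.0394), and that of EXPA10 stood at -5.41 (q = 0.265), by the authors' deposited table. EXPA1 has 7 listed isoforms, of which 2 were tested. The authors' deposited table gives -1.63 (q = 0.240) for one of them and lists the other at 0 in the experiment condition (q = 0.316). EXPA20 was the 1 member with tested isoforms of opposite sign, at -0.32 (q = 0.563) and 6.71 (q = 0.343) by the authors' deposited table, and neither passed.

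**Figure D4:**
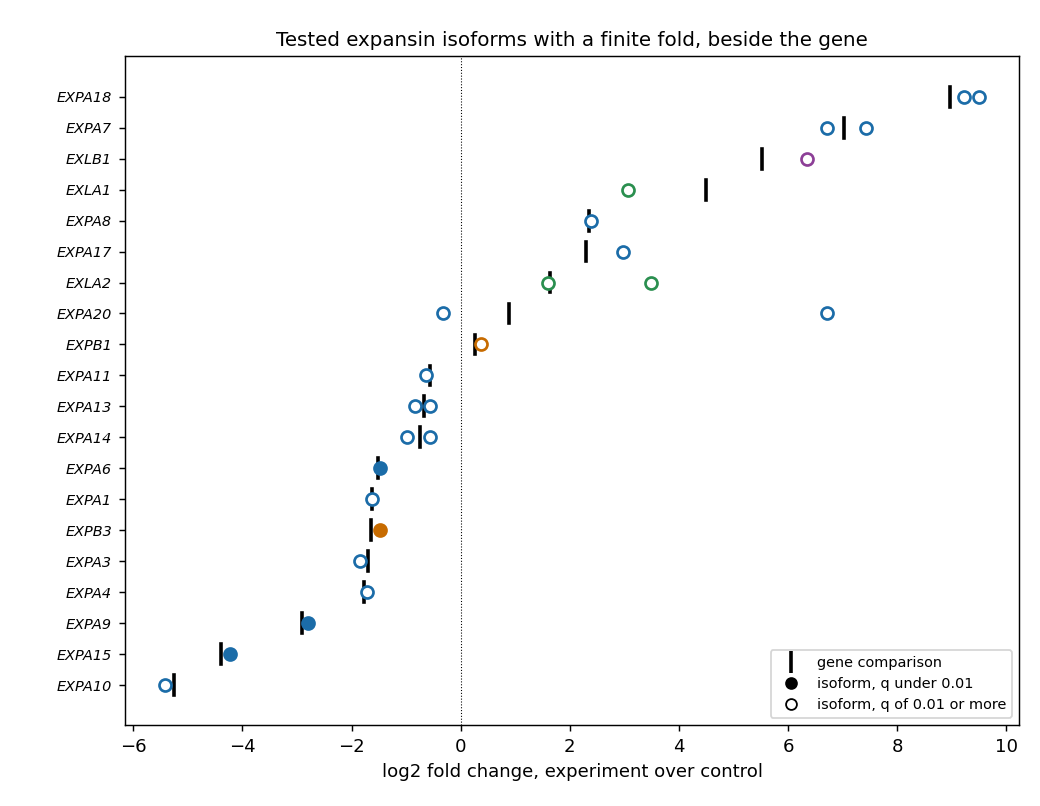
Log2 fold change (experiment over control, horizontal axis) of tested expansin isoforms with a finite fold (circles, filled where q was under 0.01) beside the value of the gene (vertical ticks). Isoform values lie near the gene value for most members, and EXPA20 has isoforms on both sides of 0, at -0.32 and 6.71.

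Of the wall genes that work beside expansins, 33 with 1 row each were examined, picked by their known roles with earlier results of these data known. Of the 29 tested, 17 rose (58.6%, beside 22.3% of all tested loci) and 3 fell (10.3%, beside 21.2%). Their median log2 was 1.24, and that of all tested loci -0.03. Proton pumps rose in 3 of 6 tested genes (50.0%) and fell in none, against the same 22.3% and 21.2% of all loci, with AHA3 at 3.74, AHA2, the main root pump, at 2.66 and AHA1 at 1.24 by the authors' deposited table. AHA8 (-1.36, q = 0.0309) and AHA11 (-0.54, q = 0.117) missed that threshold by the authors' deposited table. AHA7 has 2 rows that disagree in their call (4.57, q = 0.00196, and 7.91, q = 0.280, by the authors' deposited table) and was left out of the counts.

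The 15 XTH genes of xyloglucan remodelling examined, all tested, are a chosen part of that family and do not stand for it. Of these 10 rose (66.7%, beside 22.3% of all tested loci) and 2 fell (13.3%, beside 21.2%). XTH12, XTH13 and XTH26 are listed at 0 in control with q = 0.000177 by the authors' deposited table. XTH5 fell most, at -5.78, and the largest finite rises that passed were those of XTH31 (6.31), XTH15 (5.64) and XTH18 (4.97), by the authors' deposited table. XTH14 (11.31, q = 0.288) and XTH24 (9.70, q = 0.306) missed that threshold by the authors' deposited table, as was the case for EXPA18. Of 8 tested genes of cellulose and xyloglucan synthesis 4 rose (50.0%) and 1 fell (12.5%), with the risers led by the endoglucanase KOR1 (1.45), the cellulose synthase CESA1 (1.20) and the glucan synthase CSLC4 (0.74) by the authors' deposited table. XXT2, a xyloglucan xylosyltransferase, fell, at -0.89 by the authors' deposited table, while CESA3 (0.18, q = 0.575) and XXT1 (-0.22, q = 0.525) did not pass.

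Of 5 regulators of hair cells, all tested, 1 rose and 1 fell (20.0% each, beside 22.3% and 21.2% of all tested loci). RSL4, which drives hair growth, rose, at 4.95 with q = 0.000177, and RHD6, which starts hair formation, fell, at -1.23 with q = 0.00317, by the authors' deposited table. RSL2 (9.92, q = 0.0931), RSL1 (-3.72, q = 0.140) and GL2, a repressor of hair fate (-1.79, q = 0.163), missed that threshold by the authors' deposited table. Of the 207 genes whose window holds the root hair element consensus, EXPA7 and EXPA18 among them, 138 were tested as rows of their own. Of these 43 rose (31.2%) and 23 fell (16.7%), beside 22.3% and 21.2% of all tested loci, and their median log2 was 0.74.

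**Figure D5:**
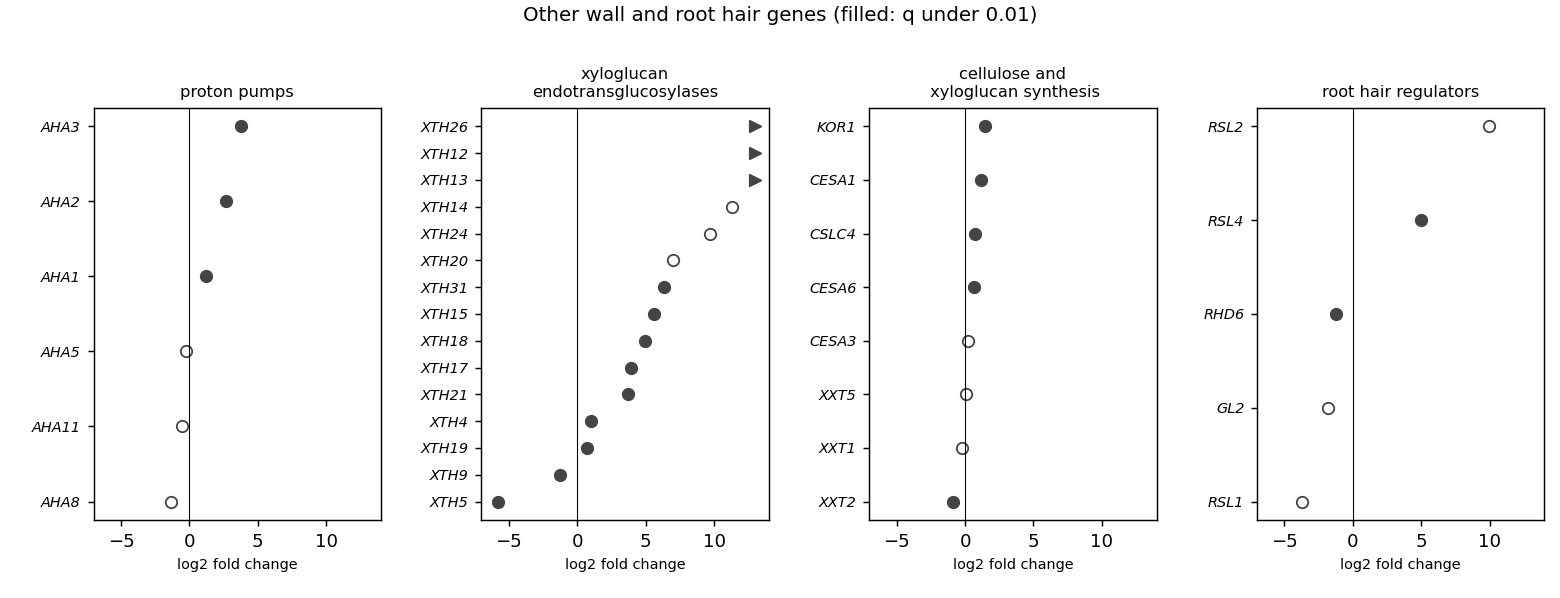
Log2 fold change (experiment over control, horizontal axes) of tested proton pumps, XTH genes, synthesis genes of cellulose and xyloglucan, and root hair regulators, filled where q was under 0.01, with arrows for genes listed at 0 in control. The XTH genes XTH12, XTH13 and XTH26 carry arrows, and synthesis genes lie between -0.89 and 1.45.

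Markers of root cell types that the sections can hold, and of shoot tissue, which root sections do not include, were read in the same comparison. All 4 markers of dividing cells and the stem cell niche fell, with PLT1 and PLT2 listed at 0 in the experiment condition by the authors' deposited table. Root cap markers fell in 3 of 4 genes, while 21.2% of all tested loci fell. The root cap marker SMB did not pass, at -7.82 with q = 0.310 by the authors' deposited table. Endodermal markers rose in 2 of 3 genes, while 22.3% of all tested loci rose. CASP1 did not pass, at 14.11 with q = 0.273 by the authors' deposited table. Of 3 genes listed as shoot markers, the Rubisco gene RBCS1A (3.44) and the antenna gene LHCB3 (3.95) rose by the authors' deposited table. LHCB1.1 did not pass, at 4.74 with q = 0.119 by the authors' deposited table. Both sections were cut from light-grown roots, and the source of these transcripts was not tested. The part of these cell types in the expansin values was not tested.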

How the data were processed

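RNA was sequenced from 6 libraries, grouped by the sample titles into 2 root sections with 3 libraries each. Per the labels' protocols, cDNA was made with a template-switching kit, amplified by PCR and tagmented, which does not mark the strand, so reads of a gene and of one antisense to it are counted alike. Per the submitters' processing notes, the tools were TopHat, Cufflinks and Cuffdiff and the genome TAIR10. Their versions are not given in sources used here, nor are settings. The authors deposited a gene and an isoform comparison. Per the file headers these hold the log2 fold change of experiment over control, a test statistic, which is a score without a fixed range, and a p-value and q-value. Infinite folds and spreadsheet errors in their place were read as a condition listed at 0. Condition values, held in 2 columns of each table and 4 in all, were not used, since no label ties them to a zone, and the planned description of levels was not made.

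Calls were counted at a q under 0.01, and the counting was tested on simulated data. The deposited q equals a Benjamini-Hochberg adjustment over all tested loci, to within a relative 4.9e-06 for genes. No test was added. Separate cultures or plants behind the libraries are not stated, so these p-values may measure technical spread. The smallest p was 5e-05, shared by 5093 loci. Each of the 35 members overlapped the reference gene of its name. Coordinates of loci are those of the files on TAIR10, written from 1. Windows and coding sequences came from RefSeq on TAIR10.1, a window being 250 bases before the annotated start, for 34 members. Coding sequences were aligned over their whole length with Biopython 1.88 (match 1, mismatch -1, gap opening -5, extension -0.5). Every member was named, and from the wall gene lists up to 4 called and 2 uncalled genes of largest finite fold. XTH genes listed at 0 in control, AHA7 and all 5 root hair regulators were named besides. Cell type markers were named outside this rule, and not all of them are named. The members, lists and motifs were chosen with earlier results of these data known.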

Additional observations from a re-analysis of the deposited data

How the results depend on the processing

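The counts of called expansins depended on the comparison read. Over all features, 43.6% of tested gene loci and 16.8% of tested isoforms were called. By isoforms, 1 member was higher and 4 were lower, in place of 3 and 7 by genes; 5 of 21 tested members (EXPA1, EXPA4, EXPA7, EXPA14 and EXLA2) lost their call in the isoform of lowest q, none changed sign (EXPA18 and EXLA3 have no finite value there), and the cause was not tested. At a q under 0.05, 3 were higher and 9 lower. At a q under 0.001, or with an absolute log2 of 1 or more asked for, 3 were higher and 6 lower, EXPA14 being the one lost. Without EXLA2, whose row names several genes, 2 were higher and 7 lower, and the same counts held without loci that overlap another reference gene, an alternative chosen after seeing the data, as was the isoform of lowest q. Partner genes are here the wall genes and the root hair regulators together, of which 34 were tested. They numbered 18 higher (52.9%) and 4 lower (11.8%), beside 22.3% and 21.2% of all tested loci. With a q under 0.05 they numbered 18 and 5, beside 27.8% and 28.0% of all tested loci. Alternatives on levels, a minimum level, a rescaling and a pseudocount were not run, since condition values were not used. Leaving out replicates was not possible. No paired analysis was possible because the tables hold no value per library. The depth behind each value is unknown.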
